A study of Arabidopsis thaliana with 18 samples.

Results

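The 84 chloroplast-encoded transcripts described here are the rows of the Arabidopsis thaliana seedling tables whose identifier starts with ATCG, the prefix of the chloroplast genome, and whose mean over all 18 libraries was at least 0.5 CPM (read counts scaled to a fixed number of mapped reads in each library). They are 84 of 88 such rows and of 32811 transcripts in all. sob3-6 seedlings were compared with SOB3-D seedlings at 4, 9 and 24 h after dawn (ZT4, ZT9 and ZT24), with 3 replicates per genotype and time point. Per the study's methods, ZT4 lay in the light period, ZT9 after lights off and ZT24 at the end of the night. SOB3-D is an activation-tagged line in the Col-0 ecotype that overexpresses SOB3, an AT-hook protein of the AHL family that represses hypocotyl growth. sob3-6 was derived from SOB3-D, so it carries the same activation tag, and its overexpressed SOB3 copy has a missense mutation in the AT-hook that makes it act in a dominant-negative way. No wild-type library is included, and each contrast is therefore between a dominant-negative and an overexpressing line. Each library came from a pool of whole seedlings, grown at constant temperature in short days on sucrose medium, that were 5 days old at ZT4 and ZT9 and 6 days old at ZT24.

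Chloroplasts keep a small circular genome for photosystem and ATP synthase subunits, ribosomal proteins, ribosomal and transfer RNAs and a few other proteins. It is read by a plastid-encoded RNA polymerase, which needs nucleus-encoded sigma factors, and by nucleus-encoded phage-type polymerases. Neighbouring genes are commonly transcribed together, and RNA processing and stability set much of the final level of each transcript. Chloroplast RNA mostly lacks the stable poly(A) tail of nuclear messengers, and poly(A) tails there mark RNA for decay. The libraries were made with a kit that selects polyadenylated RNA, so each value is the amount of a chloroplast transcript that this selection retained. How far that amount follows the total amount of the transcript was not tested. In whole seedlings, fewer cells of a type and less RNA per cell cannot be told apart.

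Few of these identifiers could be given a gene name. Notes in the reference annotation name 6 of them, and the other 78 are given by identifier alone, with no role. ATCG00670 is clpP, the chloroplast-encoded subunit of the Clp protease. ATCG00530 encodes a CemA-like proton extrusion protein. ATCG00430 is named as photosystem II reaction center protein G, although the note stands on a nuclear gene for a subunit of NADH-ubiquinone oxidoreductase. ATCG00660, ATCG00750 and ATCG01310 encode the ribosomal proteins L20, S11 and L2. There were 7 pairs of members with the same value in every library, among them ATCG01310 and ATCG00830, since reads were counted on each of several equally good matches. The 84 members thus hold 77 distinct profiles, and an identical pair gives 1 measurement.

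The members differed widely in how many reads they took. Mean CPM, which is not corrected for transcript length, ranged between 0.887 and 3767 with a median of 57.7, and 33 members had at least 100 CPM while 10 had under 5. ATCG00480 alone averaged 3767 CPM. It was followed by ATCG00470 with 1219 CPM, the L2 pair ATCG01310 and ATCG00830 with 1048 CPM each, ATCG00280 with 713 CPM and ATCG01130 with 651 CPM. The 5 highest transcripts held 47.3% of the summed mean CPM of the members. Just above the minimum were ATCG00600 with 0.887 CPM and ATCG00050 with 1.02 CPM, and just below it were ATCG00510 with 0.328 CPM and ATCG00590 with 0.175 CPM.

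The chloroplast total, the summed CPM of the 84 members, was 23976, 14110 and 13734 CPM in the sob3-6 libraries at ZT4 (replicates 1, 2 and 3), against 24285, 21078 and 16870 CPM in the SOB3-D libraries. At ZT9 it was 12483, 14080 and 16038 CPM in sob3-6 and 14933, 15212 and 16265 CPM in SOB3-D. At ZT24 it was 14268, 15164 and 15356 CPM in sob3-6 and 17185, 16429 and 15178 CPM in SOB3-D. The genotypes overlapped at every time point, and both replicate 1 libraries at ZT4 stood above all other libraries. Within replicate sets, which were harvested from shared plates, the ratio of sob3-6 to SOB3-D was 0.824 ± 0.159 at ZT4, 0.916 ± 0.0755 at ZT9 and 0.922 ± 0.0907 at ZT24 (SD, n = 3 each). The same replicate 1 libraries at ZT4 also had the most mitochondria-encoded RNA, 1641 CPM in sob3-6 against 1603 CPM in SOB3-D, with 1326 CPM in replicate 1 of SOB3-D at ZT24 next. Their part in the results was not tested.

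**Figure D1:**
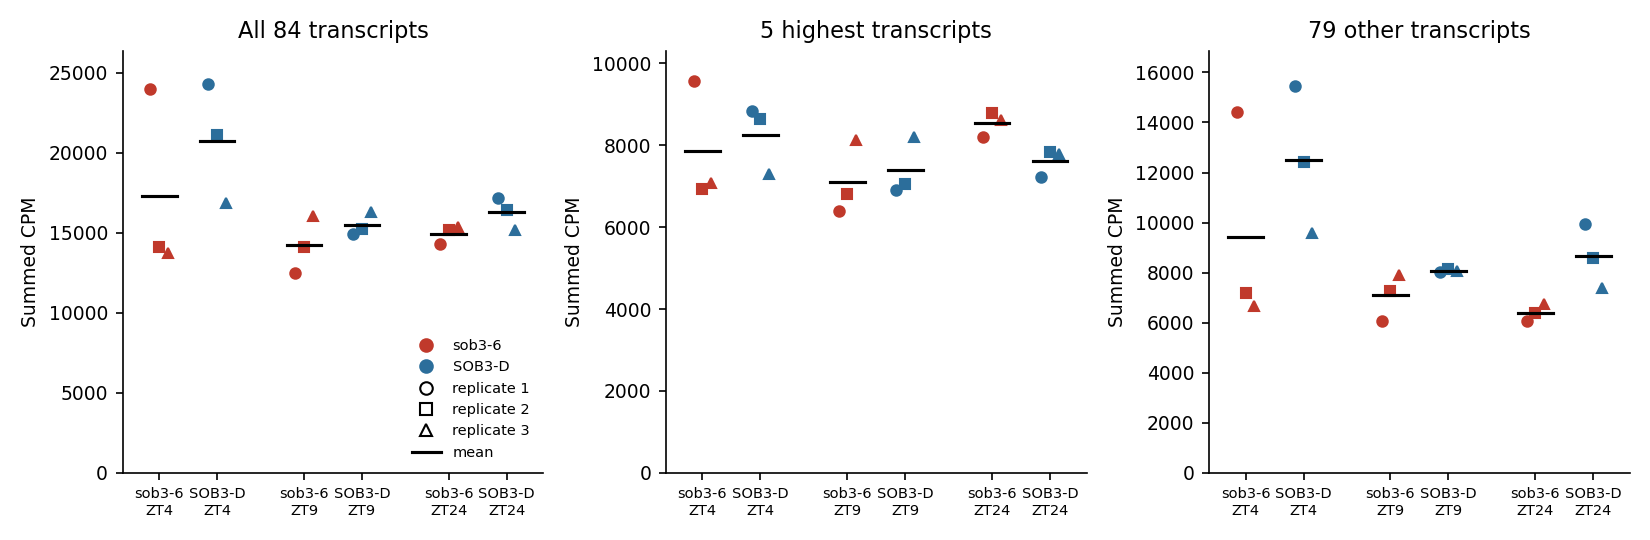
Summed CPM of all 84 chloroplast-encoded transcripts, of the 5 highest and of the other 79, with 1 point per library (marker shape, replicate) and a bar at the mean of 3. The genotypes overlap in the total at each time point, and at ZT24 the sum of the 5 highest transcripts, carried by ATCG00480 and ATCG00470, lies above SOB3-D in sob3-6 while the sum of the others lies below it.

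At ZT24 the sum of the 5 highest transcripts and the sum of the others differed in opposite directions. The summed CPM of the 5 highest transcripts was 1.13, 1.12 and 1.11 times the SOB3-D value in sob3-6 in the 3 replicate sets (mean 1.12 ± 0.0131). For the other 79 transcripts the ratio was 0.610, 0.741 and 0.911 (mean 0.754 ± 0.151). The higher sum was carried by ATCG00480 (means of 4640 CPM in sob3-6, against 3680 CPM in SOB3-D) and ATCG00470 (1449 CPM in sob3-6, against 1143 CPM in SOB3-D). The L2 pair ATCG01310 and ATCG00830, which is 1 measurement counted for each locus, averaged 1040 CPM in sob3-6, against 1062 CPM in SOB3-D. ATCG00280 went the other way, with 342, 384 and 375 CPM in sob3-6 and 820, 681 and 503 CPM in SOB3-D, and was lower by 0.84 on the log2 scale (difference -0.84, SE 0.15, limma adjusted p = 0.0123). At ZT4 the ratio for the 5 highest was 0.951 ± 0.142 and for the others 0.736 ± 0.181, and at ZT9 these were 0.960 ± 0.0317 and 0.877 ± 0.113.

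Most chloroplast transcripts had lower values in sob3-6 than in SOB3-D at every time point. The number past the test depended on the time point, on single libraries and, at ZT4, on whether the replicate set was a block. The counts that follow are from fits without the block, and they do not show that the genotype difference itself differed between time points. Differences were tested with limma on log2(CPM + 0.5), a scale that understates the change of low transcripts, with Benjamini-Hochberg adjustment over all transcripts and a threshold of adjusted p under 0.05. At ZT24, 41 of 84 members were lower in sob3-6 and 5 were higher, against a background of 2.1% lower and 4.96% higher among all transcripts tested. At ZT9, 21 members were lower and 2 higher, where the background was 4.13% lower and 5.99% higher. At ZT4, 2 members (2.38%) were lower and 0 higher (background 2.40% lower and 4.24% higher), so the share of lower members was near the background. Even so, 75 of 84 values were negative. At an unadjusted p under 0.05, 39 were lower and 0 higher at ZT4, and edgeR's quasi-likelihood test and DESeq2 called 0 higher. Median differences of the members were -0.79 at ZT4, -0.32 at ZT9 and -0.68 at ZT24 on the log2 scale, while the medians of all transcripts were 0.04, 0.03 and 0.01. Counting identical pairs once, 2, 20 and 37 of 77 profiles were lower at the 3 time points.

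Replicates of chloroplast transcripts were far more variable at ZT4 than those of other transcripts. The median SD of the members at ZT4 was 0.72 in sob3-6 and 0.48 in SOB3-D on the log2 scale, against 0.16 in both genotypes over all transcripts tested. At ZT9 it was 0.21 and 0.23, and at ZT24 it was 0.16 in sob3-6 and 0.34 in SOB3-D. With the replicate set as a block, 41 members were lower and 0 higher at ZT4 (1 was higher at an unadjusted p under 0.05). The share of all transcripts called with the block is not given here, so this count stands without a background. Without replicate 1 of sob3-6 at ZT4, 37 members were lower. Without replicate 2 of sob3-6, or without replicate 1 or 2 of SOB3-D, 0 members were called at ZT4, with 22 to 25 lower at an unadjusted p under 0.05, and without replicate 3 of sob3-6 there was 1.

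The calls at ZT9 and ZT24 also moved with single libraries. At ZT9, 13 and 10 members were lower without replicates 1 and 2 of sob3-6, and 11 and 12 without replicates 1 and 2 of SOB3-D. At ZT24, 23 were lower without replicate 2 of sob3-6 and 25 without replicate 2 of SOB3-D. Of the 21 members lower at ZT9, 19 were also lower at ZT24 in separate libraries, which is 90.5% of the ZT9 list and 46.3% of the ZT24 list. At ZT24, 48.8% of all 84 members were lower. No member was higher at one time point and lower at another. The same overlaps over all transcripts are not given here, so these counts stand without a background. Across the 77 profiles, the genotype difference at ZT24 had Pearson r of 0.843 with that at ZT4 and 0.784 with that at ZT9, and r between ZT4 and ZT9 was 0.66. These are descriptions over transcripts that share libraries and, in part, transcription units.

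**Figure D2:**
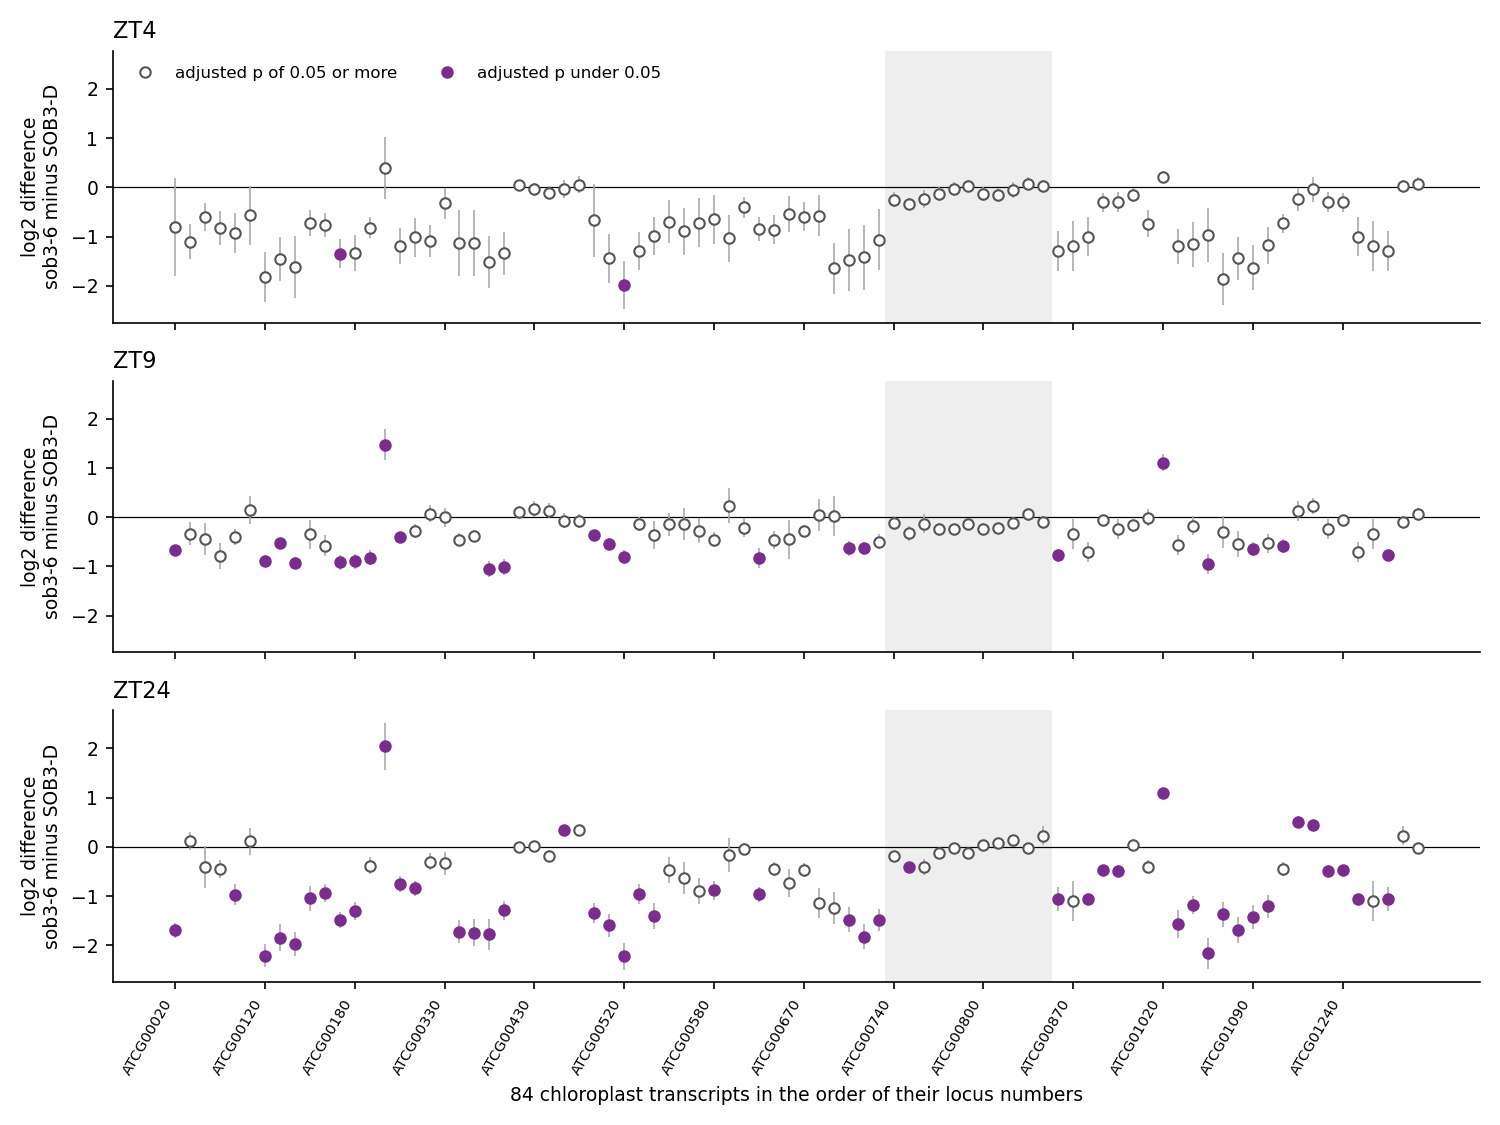
The log2 difference, sob3-6 minus SOB3-D, of each chloroplast-encoded transcript in order of its locus number, with the standard error, at ZT4, ZT9 and ZT24 from top to bottom (filled points, adjusted p under 0.05). Most points lie below 0, and in the grey band, ATCG00740 to ATCG00840, they stay between -0.41 and 0.22.

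Of the transcripts lower in sob3-6, ATCG00520 had the largest difference at ZT4 and ZT24. It had 34.5, 9.77 and 8.61 CPM in sob3-6 at ZT4, against 98.3, 51.0 and 39.6 CPM in SOB3-D, and 7.45, 7.89 and 8.73 CPM in sob3-6 at ZT24, against 64.0, 36.7 and 25.4 CPM in SOB3-D. No sob3-6 library reached the lowest SOB3-D library at either time point. The difference was -1.99 (SE 0.49, limma adjusted p = 0.0467) at ZT4, -0.81 (SE 0.14, adjusted p = 0.0086) at ZT9 and -2.22 (SE 0.28, adjusted p = 0.00222) at ZT24. Leaving out single libraries kept the call in 1 of 6 fits at ZT4 and in all 6 at both later time points. ATCG00120 had 46.8, 61.5 and 64.3 CPM in sob3-6 at ZT24, against 377, 274 and 180 CPM in SOB3-D. All sob3-6 libraries were under the lowest SOB3-D library. ATCG00120 differed by -2.21 (SE 0.24, adjusted p = 0.00114) at ZT24 and by -0.89 (adjusted p = 0.00182) at ZT9, and its -1.81 at ZT4 passed with the replicate block (adjusted p = 9.08e-05) and not without it (adjusted p = 0.0701).

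ATCG00170 was the other transcript called at ZT4, and it was lower at all 3 time points. It had 88.0, 54.8 and 35.4 CPM in sob3-6 at ZT4 and 180, 145 and 110 CPM in SOB3-D, without overlap. Its difference was -1.35 (SE 0.29, limma adjusted p = 0.0293) at ZT4, -0.92 (adjusted p = 0.00797) at ZT9 and -1.49 (adjusted p = 0.00112) at ZT24. Without replicate 2 of sob3-6, or without replicate 1 or 2 of SOB3-D, the call at ZT4 was lost, with adjusted p up to 0.119. At ZT9 the largest negative differences were those of ATCG00360, at -1.06 (adjusted p = 0.00469), and ATCG00380, at -1.02 (adjusted p = 0.00655). ATCG00360 had 7.26, 7.52 and 9.62 CPM in sob3-6 at ZT9 and 19.8, 17.3 and 15.2 CPM in SOB3-D, and it was also lower at ZT24 (-1.78, adjusted p = 0.0106). Both kept their calls at ZT9 in 6 of 6 fits without a single library.

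ATCG01020 moved the other way. It had 256, 348 and 233 CPM in sob3-6 at ZT9, against 126, 152 and 108 CPM in SOB3-D, and 315, 351 and 346 CPM in sob3-6 at ZT24, against 152, 138 and 185 CPM in SOB3-D. Every sob3-6 library was above every SOB3-D library at both time points. The difference was 1.11 (SE 0.17, limma adjusted p = 0.00468) at ZT9 and 1.10 (SE 0.10, adjusted p = 0.00073) at ZT24, and it was called in 6 of 6 fits without a single library at each. At ZT4 the values were 290, 252 and 313 CPM in sob3-6 and 234, 222 and 283 CPM in SOB3-D, which overlapped, and the difference of 0.21 did not pass (adjusted p = 0.361). In the fit without the replicate block, ATCG01020 was the 1 member whose genotype difference was called as differing between time points. The fit with the block called further members, given below with the other interaction results. The genotype difference of ATCG01020 was larger by 0.89 (SE 0.22, adjusted p = 0.0472) at ZT9 than at ZT4 and by 0.89 (SE 0.22, adjusted p = 0.0334) at ZT24 than at ZT4. In the fit with the replicate block, these gave adjusted p of 0.000938 and 0.000911. Without it both are close to the threshold, and leaving out 1 replicate number kept them in 0 of 3 and 1 of 3 fits, with values between 0.75 and 0.98.

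The other members higher in sob3-6 were named because so few were, after their values were seen. ATCG00220, with a mean of 4.81 CPM, had 3.46, 5.77 and 2.75 CPM in sob3-6 at ZT9 and 0.743, 1.68 and 0.901 CPM in SOB3-D. At ZT24 it had 2.56, 12.7 and 10.6 CPM in sob3-6 and 1.51, 1.34 and 1.23 CPM in SOB3-D. The genotypes did not overlap at either time point. The differences were 1.47 (SE 0.32, limma adjusted p = 0.0212) and 2.04 (SE 0.48, adjusted p = 0.0362), and they were called in 3 of 6 and 1 of 6 fits without a single library. The other 3 calls were at ZT24 and were small. ATCG00470 had 1407, 1508 and 1432 CPM in sob3-6 and 1118, 1138 and 1172 CPM in SOB3-D at ZT24, a difference of 0.34 (SE 0.07, adjusted p = 0.0172) that was called in 2 of 6 such fits. ATCG01120 differed by 0.50 (adjusted p = 0.0384) and ATCG01130 by 0.45 (adjusted p = 0.0334), and these calls were kept in 1 of 6 and 2 of 6 fits and lost after TMM rescaling, with adjusted p of 0.0521 and 0.0542. ATCG00480, which took the most reads, had 4501, 4790 and 4627 CPM in sob3-6 at ZT24 and 3345, 3723 and 3973 CPM in SOB3-D, without overlap, and its difference of 0.34 passed with the replicate block (adjusted p = 0.013) and not without it (SE 0.10, adjusted p = 0.074).

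**Figure D3:**
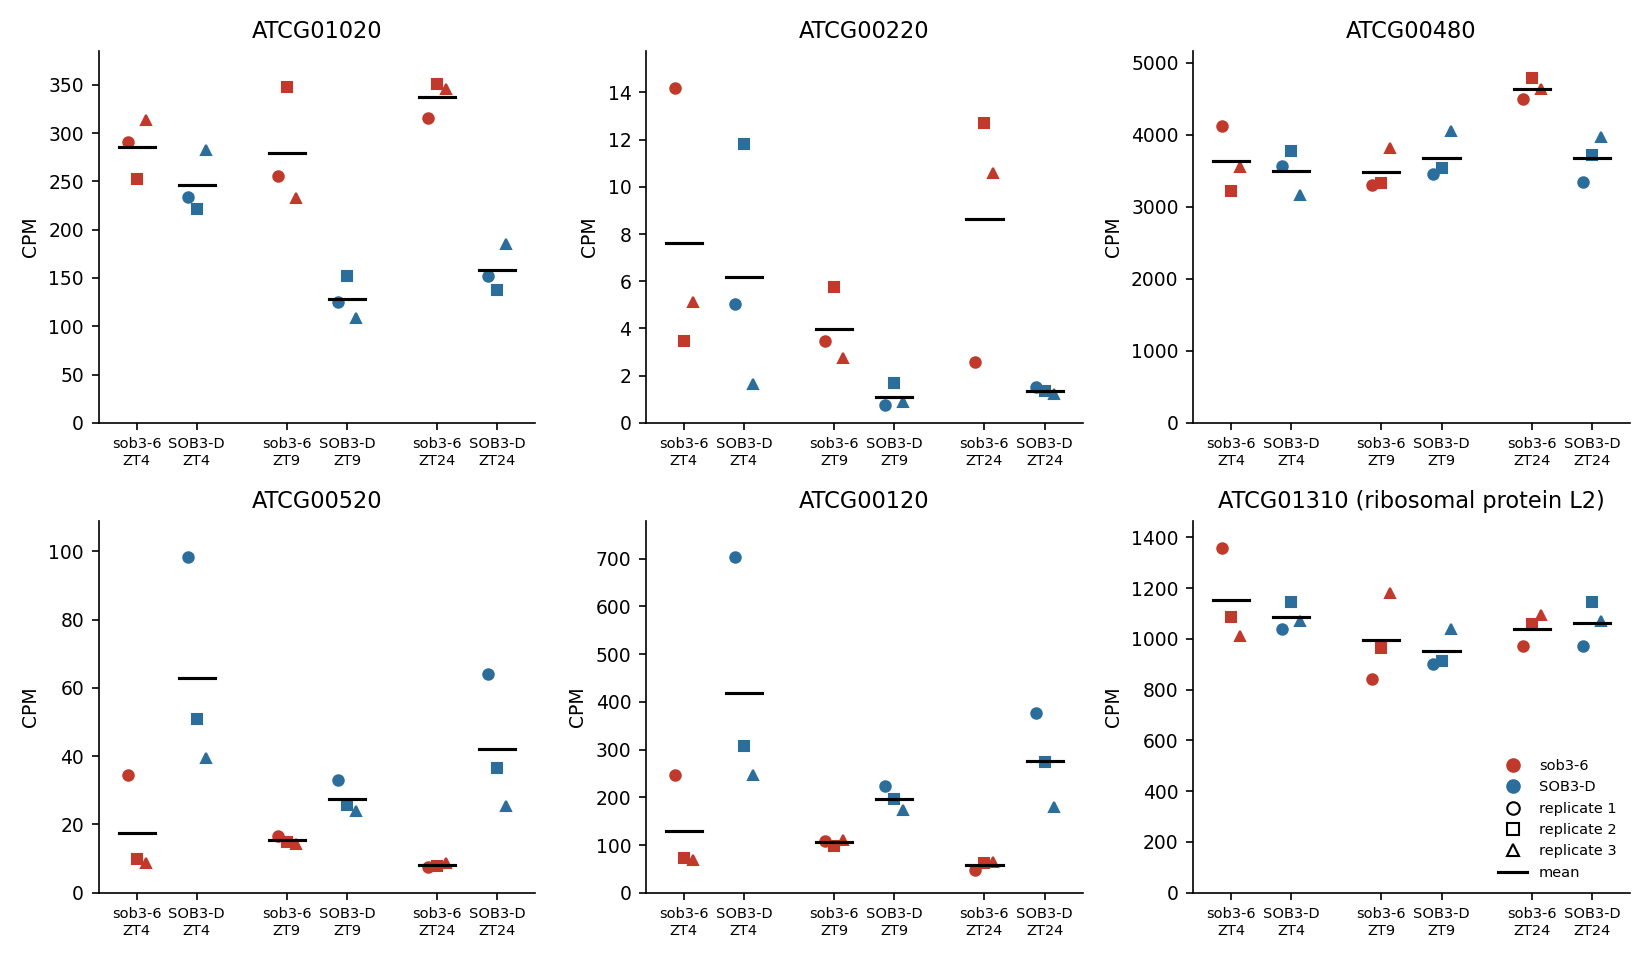
CPM of 6 chloroplast-encoded transcripts in each library (sob3-6 and SOB3-D at ZT4, ZT9 and ZT24, marker shape for the replicate, bar at the mean of 3), each panel on its own linear axis that starts at 0. ATCG01020 and ATCG00220 lie higher in sob3-6 at ZT9 and ZT24, ATCG00520 and ATCG00120 lie lower, and ATCG01310 (ribosomal protein L2) overlaps at every time point.

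Among the 6 members with a name, 2 were lower in sob3-6, both at ZT24. The CemA-like transcript ATCG00530 had 22.4, 21.9 and 22.7 CPM in sob3-6 at ZT24 and 64.6, 40.1 and 32.8 CPM in SOB3-D, without overlap, and differed by -0.96 (SE 0.21, limma adjusted p = 0.0254), a call kept in 3 of 6 fits without a single library. At ZT4 it had 55.7, 22.1 and 22.8 CPM in sob3-6 and 119, 70.3 and 51.1 CPM in SOB3-D. These overlapped through replicate 1 of sob3-6, and the difference of -1.29 did not pass without the replicate block (adjusted p = 0.0809), whereas with the block adjusted p was 0.000631. At ZT9 ATCG00530 differed by -0.14 (adjusted p = 0.634). The S11 transcript ATCG00750 had 82.9, 86.5 and 99.1 CPM in sob3-6 at ZT24 and 109, 117 and 129 CPM in SOB3-D, a difference of -0.40 (SE 0.09, adjusted p = 0.0291) that was called in 2 of 6 fits without a single library.

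The other named members gave no genotype call in the fit without the block. clpP (ATCG00670) had 39.8, 35.5 and 39.3 CPM in sob3-6 at ZT24 and 66.6, 52.6 and 42.6 CPM in SOB3-D, which did not overlap. Its difference of -0.47 (SE 0.15, limma adjusted p = 0.0945) passed with the replicate block (adjusted p = 0.0224), as did its -0.59 at ZT4 (adjusted p = 0.268 without the block and 0.0124 with it). L20 (ATCG00660) differed by -0.73 at ZT24 (SE 0.29, adjusted p = 0.181, and 0.00833 with the block). The L2 transcript ATCG01310 had 971, 1058 and 1092 CPM in sob3-6 at ZT24 and 973, 1146 and 1068 CPM in SOB3-D, and its differences were 0.08, 0.05 and -0.03 at ZT4, ZT9 and ZT24 (SE 0.14, 0.14 and 0.08). The transcript named as photosystem II protein G, ATCG00430, had 411, 466 and 408 CPM in sob3-6 at ZT24 and 471, 439 and 372 CPM in SOB3-D, with differences of -0.04, 0.16 and 0.01 at the 3 time points (SE 0.13, 0.17 and 0.10). The genotypes overlapped for both.

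S11 and the L2 twin ATCG00830 lie in a stretch of consecutive locus numbers, ATCG00740 to ATCG00840, where the genotypes differed little. This stretch was chosen after its values were seen, so it has no test. Its 11 profiles had median differences of -0.13, -0.14 and -0.03 at ZT4, ZT9 and ZT24, against -0.91, -0.38 and -0.95 for the other 66 profiles. Within it the differences lay between -0.41 and 0.22 over the 3 time points, and S11 at ZT24 was the 1 call. Transcripts that took more reads tended to have less negative differences, with Spearman's rho across the 77 profiles of 0.442, 0.238 and 0.265 in time order.

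Each transcript was then set against the chloroplast total of its library, which removes a change that all members share. At ZT24, 38 members were lower in sob3-6 relative to the total and 5 were higher (background 2.09% and 4.96%). At ZT9, 13 were lower and 2 higher (background 4.09% and 5.98%), and with the replicate block 26 were lower and 5 higher. At ZT4, 20 were lower and 0 higher (background 2.50% and 4.31%), with 41 lower and 0 higher at an unadjusted p under 0.05, and 38 lower and 3 higher with the block. The members higher relative to the total were the same as those higher on the CPM scale at ZT9 and ZT24. Median differences were -0.49 at ZT4, -0.19 at ZT9 and -0.56 at ZT24. The 20 calls at ZT4 included CemA-like ATCG00530, at -0.99 (SE 0.20, limma adjusted p = 0.0188), and ATCG00520, at -1.69 (SE 0.30, adjusted p = 0.0124), which had the largest difference. Single libraries moved this count at ZT4 to 2 without replicate 2 of SOB3-D, 7, 8 and 9 without replicate 2 or 3 of sob3-6 or replicate 3 of SOB3-D, and 11 without replicate 1 of SOB3-D. At ZT9 the lower calls were 5, 6, 7 and 9 without replicates 1 and 2 of SOB3-D and replicates 2 and 1 of sob3-6, and 20 without replicate 3 of SOB3-D.

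The few highest transcripts weigh heavily in that total. ATCG00480 made up 31.1 ± 0.829% of the total in sob3-6 at ZT24 and 22.8 ± 3.36% in SOB3-D (SD, n = 3 each), with 31.5, 31.6 and 30.1% in sob3-6 and 19.5, 22.7 and 26.2% in SOB3-D. When the total left out the 5 highest members, 29 members were lower and 10 higher at ZT24. When the reference was the mean log2 level of the members, 18 were lower and 19 higher at ZT24, 8 lower and 4 higher at ZT9, and 11 lower and 0 higher at ZT4 (23 higher at an unadjusted p under 0.05). Each of these references is made from the members themselves, and the mean log2 level centres their differences on 0, so the balance of lower and higher calls under it follows from its construction and says nothing of the lower values on the CPM scale.

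Between time points, many chloroplast transcripts were lower at ZT9 and ZT24 than at ZT4 when the genotypes were averaged. In sob3-6 only the chloroplast total of replicate 1 at ZT4 (23976 CPM) stood above those of the later libraries. Replicates 2 and 3 (14110 and 13734 CPM) lay within the range at ZT9 (12483 to 16038 CPM) and below that at ZT24 (14268 to 15356 CPM). Averaged over the genotypes, 29 members were lower and 0 higher at ZT9 than at ZT4 (background 15.9% lower and 29.0% higher), and 38 were lower and 0 higher at ZT24 than at ZT4 (background 18.2% and 27.1%). At an unadjusted p under 0.05 there were 0 and 1 higher, and edgeR's quasi-likelihood test and DESeq2 called 0 higher in both. At ZT24, 3 were higher and 0 lower than at ZT9 (background 22.2% higher and 22.8% lower), with 1 lower at an unadjusted p under 0.05 and 0 lower by edgeR's quasi-likelihood test and DESeq2. Median changes of the members were -0.44, -0.52 and -0.01 for ZT9 minus ZT4, ZT24 minus ZT4 and ZT24 minus ZT9. Seedlings are given as 5 days old at ZT4 and ZT9 and 6 days old at ZT24, which was dawn of the next day. Time of day and age therefore cannot be told apart in the contrasts with ZT24. Only ZT4 lay within the light period, so time of day and light against dark cannot be told apart in the contrasts with ZT4.

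The counts of these time contrasts moved with the replicate number left out. Without replicate 1 at all time points, 7 members were lower at ZT9 than at ZT4 and 19 lower, 2 higher, at ZT24 than at ZT4, while 12 were lower and 2 higher at ZT24 than at ZT9. Without replicate 2, 14 were lower at ZT9 than at ZT4 and 5 lower at ZT24 than at ZT4, and 1 was higher at ZT24 than at ZT9. Without replicate 3, 53 were lower at ZT9 than at ZT4. Relative to the chloroplast total, fewer members were lower in the contrasts with ZT4. There 6 members (7.14%) were lower and 2 higher at ZT9 than at ZT4 (background 15.8% and 29.0%). At ZT24, 18 (21.4%) were lower and 3 higher than at ZT4 (background 18.1% and 27.1%). Compared with ZT9, 3 (3.57%) were lower and 0 higher at ZT24 (background 22.8% and 22.2%, with 1 higher at an unadjusted p under 0.05). The share of lower members was thus near the background for ZT24 against ZT4 and under it in the other contrasts. For ZT24 against ZT4 the split was 3 lower and 18 higher against the total without the 5 highest and 7 lower and 11 higher against the mean log2 level, a balance that the choice of reference sets.

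ATCG00300 had the largest decrease. Its values at ZT4 were 30.1, 14.1 and 14.5 CPM in sob3-6 and 59.1, 36.7 and 28.4 CPM in SOB3-D. At ZT9 they were 9.71, 13.3 and 9.87 CPM in sob3-6 and 9.17, 12.1 and 9.92 CPM in SOB3-D, and at ZT24 8.92, 10.8 and 9.27 CPM in sob3-6 and 15.7, 10.7 and 10.3 CPM in SOB3-D. Every ZT9 library lay below every ZT4 library. The change averaged over genotypes was -1.31 (SE 0.19, limma adjusted p = 2.34e-05) at ZT9 and -1.29 (SE 0.19, adjusted p = 2.41e-05) at ZT24, each relative to ZT4, and the calls were kept in 3 of 3 fits without 1 replicate number. It also held relative to the total, at -0.99 (adjusted p = 4.3e-06) and -1.04 (adjusted p = 1.89e-06). ATCG00490 had 1424, 165 and 170 CPM in sob3-6 at ZT4 and 950, 467 and 363 CPM in SOB3-D, and its change at ZT24 of -1.10 (SE 0.39, adjusted p = 0.0292) was -0.37 (adjusted p = 0.0311) without replicate 1 at all time points. Replicate 1 was the highest library of both genotypes at ZT4.

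Of the named members, clpP was lower at ZT9 than at ZT4 by 0.49 on the log2 scale (change -0.49, SE 0.17, limma adjusted p = 0.023), a change of -0.22 without replicate 1 that did not pass (adjusted p = 0.205). CemA-like ATCG00530 changed by -0.72 at ZT9 (SE 0.23, adjusted p = 0.015) and by -0.60 at ZT24 (adjusted p = 0.0376), each relative to ZT4. Without replicate 1 these were -0.33 and -0.36 and did not pass (adjusted p = 0.0947 and 0.127). L2, L20, S11 and the transcript named as photosystem II protein G gave no time call. The 3 members higher at ZT24 than at ZT9 were ATCG00420 (0.21, adjusted p = 0.0166), ATCG00760 (0.38, adjusted p = 0.0347) and ATCG01020 (0.30, adjusted p = 0.0313), kept in 1, 0 and 1 of 3 fits without 1 replicate number. Relative to the total, ATCG00160, ATCG00170 and ATCG00680 were lower at ZT24 than at ZT9, with changes of -0.35, -0.36 and -0.64 (adjusted p = 0.0161, 0.00943 and 0.028), and ATCG00470 and ATCG00480 were higher at ZT9 and ZT24 than at ZT4, with ATCG00420 also higher at ZT24.

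**Figure D4:**
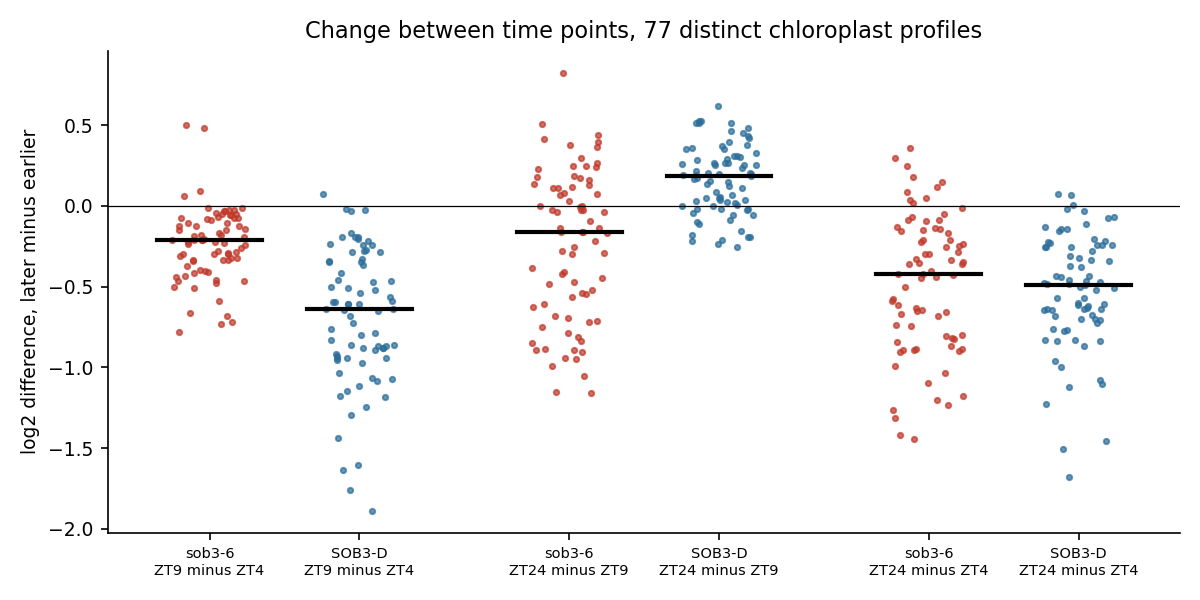
Log2 change between time points of the 77 distinct chloroplast profiles in sob3-6 and in SOB3-D (1 point per profile, bar at the median), for ZT9 minus ZT4, ZT24 minus ZT9 and ZT24 minus ZT4. Most changes relative to ZT4 are below 0 in both genotypes, and the point clouds of the genotypes overlap in each contrast.

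Within SOB3-D, 23 members (27.4%) were lower and 0 higher at ZT9 than at ZT4 (background 12.8% lower and 21.9% higher). At ZT24, 14 (16.7%) were lower and 0 higher than at ZT4 (background 15.5% lower and 23.3% higher), so the share of lower members was near the background. At an unadjusted p under 0.05, 0 were higher in either contrast. Within sob3-6, 1 member was lower at ZT9 than at ZT4 (background 9.48% lower and 17.0% higher) and 4 were lower, 1 higher, at ZT24 than at ZT4 (background 10.5% and 15.7%). Median changes of the 84 members at ZT9 relative to ZT4 were -0.22 in sob3-6 and -0.61 in SOB3-D, and at ZT24 relative to ZT4 -0.40 in sob3-6 and -0.48 in SOB3-D. Without replicate 1, 9 members were higher and 0 lower at ZT9 than at ZT4 within sob3-6 (0 lower at an unadjusted p under 0.05), and 22 were lower within SOB3-D. The difference between genotypes in these changes was tested as an interaction. For ZT9 minus ZT4 it called ATCG01020 alone as larger (1.19% of members, background 1.05% larger and 0.447% smaller). For ZT24 minus ZT4 it again called ATCG01020 alone (1.19%, background 2.09% and 0.950%), so both shares were near or under the background. For ZT24 minus ZT9 it called 0 larger and 0 smaller (background 2.67% and 1.51%), with 1 larger and 4 smaller at an unadjusted p under 0.05 and 0 by edgeR's quasi-likelihood test and DESeq2. With the replicate set as a block, the interaction was larger for 3 members in ZT9 minus ZT4 and 3 in ZT24 minus ZT4, and smaller for 11 in ZT24 minus ZT9. CemA-like ATCG00530 was among those larger in ZT9 minus ZT4 (1.15, limma adjusted p = 0.0104) and those smaller in ZT24 minus ZT9 (-0.82, adjusted p = 0.0362). Without the block neither passed (adjusted p = 0.315 and 0.42). ATCG00300 was larger in both contrasts with ZT4, and ATCG00040 in ZT24 minus ZT4 (1.23, adjusted p = 0.0143 with the block).

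Nuclear genes for plastid transcription and RNA metabolism were read from the same fits. Of 45 transcripts of 32 loci (sigma factors, phage-type polymerases, polymerase-associated proteins, plastid ribonucleases and RNA-binding proteins), 2 were lower in sob3-6 at ZT4 (2 loci, where 2.40% of all transcripts were lower), 16 lower and 2 higher at ZT9 (15 loci and SIG1 alone, where 4.13% were lower and 5.99% higher), and 7 higher at ZT24 (5 loci, where 4.96% were higher). Whether these differences changed between time points was not tested. SIG5, a light- and stress-responsive sigma factor, averaged 33.4 ± 2.40 CPM in sob3-6 at ZT4 and 66.3 ± 12.1 CPM in SOB3-D (log2 difference -0.97, limma adjusted p = 0.00466). SIG4, another sigma factor, averaged 16.7 ± 1.17 CPM in sob3-6 at ZT24 and 7.63 ± 0.703 CPM in SOB3-D (1.08, adjusted p = 0.00156), and RPOTp, the plastid phage-type polymerase, differed by 0.59 at ZT24 (adjusted p = 0.00658). At ZT9 SIG1 was higher by 0.69 (adjusted p = 0.00292), while CSP41B, an RNA-binding protein of chloroplasts, and FSD2, a superoxide dismutase associated with the polymerase, differed by -0.90 (adjusted p = 0.0094) and -0.82 (adjusted p = 0.00232). At ZT24 CSP41B was higher by 0.49 (adjusted p = 0.00689). The part of these genes in the levels of the chloroplast transcripts was not tested.

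SOB3 itself, the targeted gene, averaged 243 ± 24.6, 243 ± 5.65 and 321 ± 9.19 CPM in sob3-6 at ZT4, ZT9 and ZT24, and 179 ± 11.7, 145 ± 12.0 and 219 ± 13.6 CPM in SOB3-D (SD, n = 3 each). Both lines overexpress it, so its level does not check the labels. The summed CPM of 5 transcripts of the photosynthetic-cell genes RBCS1A, LHCB1.3, LHCB2.1 and LHCA4 ranged in sob3-6 and SOB3-D between 41150 and 48430 and between 40040 and 50700 at ZT4, between 32290 and 40930 and between 31890 and 41490 at ZT9, and between 44590 and 46030 and between 47450 and 48840 at ZT24. The genotypes overlapped at ZT4 and ZT9 and not at ZT24. At ZT9, the 1 time point with a call, 2 of the 5 transcripts were higher in sob3-6. These genes did not move together. At ZT9 the higher RBCS1A transcript averaged 8445 CPM in sob3-6, against 11600 CPM in SOB3-D. Means of LHCB1.3, LHCB2.1 and LHCA4 were higher in sob3-6 there (for LHCB2.1 1044 CPM, against 275 CPM). At ZT24 the same RBCS1A transcript was higher in sob3-6 (9939 CPM, against 8614 CPM). LHCB1.3 was lower there (20590 CPM, against 25640 CPM). Root hair markers summed to between 14.4 and 63.3 CPM over all libraries and root endodermis markers to between 20.6 and 50.4 CPM, none of them was called between genotypes, and at ZT4 root hair markers were highest in replicate 1 of both genotypes (44.4 CPM in sob3-6, against 63.3 CPM in SOB3-D). Their part in the results was not tested.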

How the data were processed

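RNA from pools of whole seedlings was made into poly(A)-selected, stranded libraries and read as single ends. Per the study's methods, the authors demultiplexed with bcl2fastq and aligned with Bowtie to the TAIR10 cDNA set, where every equally good match was kept. The values the authors deposited are read counts per fixed number of mapped reads (CPM) and are treated as a normalized signal: because each best match was counted, columns sum to 1546180 to 1573550, and identical loci share reads. Whether strand was used in counting is not given in the sources used here, so antisense and overlapping transcripts may share reads. 1 read was worth 0.0903 to 0.166 CPM, and 100% of the values were whole reads within 0.1, which gives 6012747 to 11076919 mapped and 101435 to 266135 chloroplast reads per library, 0.807 to 1.56% of the signal.

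limma 3.58.1 (R 4.3.3, mean trend, two-sided) was fitted to log2(CPM + 0.5) of the 28215 transcripts whose mean reached 0.5 CPM, per time point for genotype (without rows at 0 in all 6 libraries) and on all 18 libraries for time and interaction. In relative fits the members' rows had log2 of the chloroplast total subtracted. As alternatives, edgeR 4.0.16 and DESeq2 1.42.0 were run on the recovered reads. edgeR's quasi-likelihood test called 897, 1403 and 1316 transcripts higher and 730, 1231 and 612 lower in sob3-6 at ZT4, ZT9 and ZT24. Other alternatives were the pseudocount, the filter, TMM, a replicate block, 1 fit for all libraries, other references and libraries left out. The background shares in the text are those of the main fits. Member counts from these alternatives or at an unadjusted p stand without a background. Replicate numbers pair the genotypes because each set was harvested from shared plates. Deviations of same-numbered libraries within a time point had r of 0.0935 to 0.320 over all transcripts, those of other pairs -0.225 to 0.110. Per the study's methods, each replicate set was grown on plates of its own.

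The members and lists were chosen with earlier results of these data known. Transcripts were named if a reference note names them, if among the 5 highest, or if among the 3 largest changes in each direction that passed a test and agreed in 3 of 3 pairs, with at most 2 unnamed identifiers per direction. Members of counts of 5 or fewer were added afterwards. Gene symbols fixed in that rule and lists by function or transcription unit could not be matched to chloroplast identifiers, and lengths and sequences were not used here. Scripts were tested on simulated data.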

Additional observations from a re-analysis of the deposited data

Results flagged for a closer look

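ATCG01020 was marked because its genotype difference was called as differing between time points in the fit without the replicate block. As 1.19% of the members, it stood against 1.05% and 2.09% of all transcripts called as larger. Leaving out 1 replicate number kept the calls in 0 of 3 and 1 of 3 fits. The sob3-6 minus SOB3-D difference was larger by 0.8932 on the log2 scale at ZT9 than at ZT4 (limma interaction, adjusted p = 0.0472) and by 0.885 at ZT24 than at ZT4 (adjusted p = 0.0334). The difference was positive in 3 of 3 replicate sets at each time point, and its mean CPM was 285, 279 and 337 in sob3-6 and 246, 128 and 158 in SOB3-D at ZT4, ZT9 and ZT24. In edgeR's quasi-likelihood test the contrast of ZT9 with ZT4 did not pass.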

How the results depend on the processing

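No called transcript that the text names changed sign under an alternative. At ZT4 the members called by genotype numbered 2, and 1 with no filter, 4 with TMM rescaling, 41 with the replicate block, 26 in 1 fit of all 18 libraries, 24 by edgeR's exact test and 10 by DESeq2. The fit of 18 libraries called 5 at ZT9 (23 in the separate fit) and 20 at ZT24 (46). Relative to the chloroplast total, calls were 41 with the block and 11 with the mean log2 reference at ZT4 (20), and 31 with the block and 9 in the fit of 18 at ZT9 (15). For ZT9 minus ZT4, edgeR's quasi-likelihood test called 47 and DESeq2 44 (29). Relative to the total, the block by number, which is not said to mark shared plates across time points, gave 15 (8) for ZT9 minus ZT4, 10 (3) for ZT24 minus ZT9 and 36 (21) for ZT24 minus ZT4, and both other references gave 5 for ZT24 minus ZT9. Interaction calls were 3, 11 and 3 with the block for ZT9 minus ZT4, ZT24 minus ZT9 and ZT24 minus ZT4 (1, 0 and 1), and 0 with no filter or by edgeR's quasi-likelihood test for ZT9 minus ZT4. The ratio of totals at ZT24 was 0.754 without the 5 highest transcripts (0.922). The cause of these shifts was not tested.

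With 1 library left out, genotype calls at ZT4, ZT9 and ZT24 ranged between 0 and 37, 11 and 28, and 24 and 45, and relative genotype calls between 2 and 25, 6 and 22, and 27 and 45. With a whole replicate set left out, which keeps 2 libraries per genotype and was added after seeing the data, as was a filter per time point, these ranges were 0 to 35, 1 to 39 and 4 to 47, and 0 to 29, 0 to 31 and 7 to 46. Without a replicate number, time calls ranged between 7 and 53 (ZT9 minus ZT4), 1 and 14 (ZT24 minus ZT9) and 5 and 52 (ZT24 minus ZT4), relative time calls between 3 and 12, 0 and 19, and 5 and 28, and interaction calls between 0 and 1, 0 and 0, and 0 and 1. The ratios of totals were between 0.742 and 0.901 (ZT4), 0.881 and 0.956 (ZT9) and 0.877 and 0.967 (ZT24). At ZT4 the member spread of up to 0.72 (log2 SD) limits the fit without the block, whereas members of same-numbered libraries deviated together there (r 0.448 to 0.847).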
